A study of Mus musculus with 2 samples.

Results

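The miRNA genes Mir122, Mir192, Mir194-1, Mir194-2, Mir215, Mir375, Mir7-1, Mir7-2 and Mir7b, best known from liver, gut, kidney and endocrine tissue, were followed in the bladder of newborn mice. They are 9 of the 1973 miRNA genes in the deposited tables and were chosen by name for their typical organs, not by a level measured here. Earlier results of these data were known when the choice was made. There are 2 microRNA-seq libraries, made from total RNA, each of 1 whole bladder of strain B6NCrl at postnatal day 0, with no treatment and no allele named in the labels. Both bladders came from pups of the same pregnancy and are called pup 2 and pup 1 after their labels, which state that sex was not collected. They form 1 group, so no condition was compared, and the pups were compared with each other only as libraries. Levels are sense-strand counts per 1000000 sense-strand counts at miRNA genes (CPM), and errors are SDs over the 2 pups (n = 2).

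MicroRNAs are cut from hairpin precursors and guide the repression of messenger RNAs, mainly by pairing through the seed, bases 2 to 8 of the mature strand. Mir122 is the dominant miRNA of hepatocytes and acts in lipid metabolism. Mir192, Mir194 and Mir215 are made in liver, intestinal epithelium and kidney tubules. Mir375 is a miRNA of pancreatic islets, where it restrains insulin secretion, and is also made in pituitary and some epithelial cells. The Mir7 genes are known from islets, pituitary and neurons.

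The mature sequences are shown because shared sequence decides which of these genes can be told apart by short reads. They come from RefSeq (GRCm38.p6, the assembly that mm10 names), read 5′ to 3′, with the seed in capitals. Entries were matched for 8 of the 9 genes, and Mir122 is named only. The seed groups were led by these strands.
miR-192-5p: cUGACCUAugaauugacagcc
miR-215-5p: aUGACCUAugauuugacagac
miR-194-5p: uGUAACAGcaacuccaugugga
miR-7a-5p: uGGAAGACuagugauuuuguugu
miR-7b-5p: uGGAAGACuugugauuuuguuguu

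Counted from the 5′ end, miR-192-5p and miR-215-5p matched at 18 of 21 bases and differed by C1A, A12U and C20A, all outside the shared seed. Among the 1738 mature entries compared, that seed was held by Mir192 and Mir215 alone. The strands miR-7a-5p and miR-7b-5p matched at 22 of 23 bases, with the difference A10U, and miR-7b-5p has 1 base more. Mir194-1 and Mir194-2 both encode the same 22 bases of miR-194-5p, and Mir7-1 and Mir7-2 both encode the same 23 bases of miR-7a-5p. A read of either strand matches both of its genes. Reads mapped to several places made up 24.8% of the library of pup 2 and 22.7% of that of pup 1. They are listed apart from the genes, so the levels given for these 4 genes may fall short of the true ones by an amount that was not measured.

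The 3p strands of these gene pairs are shown next because they do differ between the copies. Capitals now mark the bases that differ within each pair.
miR-194-1-3p: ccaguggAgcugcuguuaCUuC
miR-194-2-3p: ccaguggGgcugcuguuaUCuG
miR-7a-1-3p: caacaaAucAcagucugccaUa
miR-7a-2-3p: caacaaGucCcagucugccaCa

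The 3p pair of Mir194 differed by A8G, C19U, U20C and C22G, and that of Mir7 by A7G, A10C and U21C. The longest run that any of these 4 strands shared with another of the 1005 RefSeq hairpins compared was 11 bases. Which strand the counted reads came from is not given in the tables, which hold 1 count per gene. The hairpin of Mir375, the other endocrine gene, is shown with the 5p strand in capitals, whose longest run in another hairpin was 8 bases. No mature entry of its 3p strand was at hand, so whether reads of that strand are unique was not examined.
Mir375: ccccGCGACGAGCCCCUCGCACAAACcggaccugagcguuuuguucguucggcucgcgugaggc

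The genes lie at 7 places of the genome, given here in mm10 coordinates with genes of GENCODE M21. Mir194-2 (chr19:6264643-6264728) and Mir192 (chr19:6264844-6264932) are 115 bases apart on the plus strand, with no other gene annotated over them. Mir194-1 (chr1:185313319-185313385) and Mir215 (chr1:185313581-185313692) are 195 bases apart on the plus strand of chromosome 1. The non-coding gene 2010103J01Rik runs through both, with Mir194-1 in an intron and Mir215 in an exon, and an intron of the protein-coding gene Iars2 covers them on the opposite strand. Each pair therefore joins a Mir194 copy to a gene of the miR-192 seed. Mir375 (chr1:74900658-74900721, minus strand), Mir7-2 (chr7:78888277-78888373, plus strand) and Mir7b (chr17:56242988-56243098, plus strand) overlap no other annotated gene. Mir7-1 (chr13:58392779-58392886, minus strand) lies in an intron of Hnrnpk, which encodes an RNA-binding protein of most cells. Mir122 (chr18:65248861-65248926, plus strand) overlaps an exon of the long non-coding gene AC157910.3.

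Pup 2 had 3636650 sense-strand gene counts and pup 1 had 7460621, so 3 counts correspond to 0.825 CPM in pup 2, against 0.402 CPM in pup 1. Smooth muscle and epithelial miRNAs were read first, though their presence cannot by itself show which organ was taken. Mir143 and Mir145a summed to 535290 CPM in pup 2, against 538292 CPM in pup 1. All 11 epithelial genes, among them the Mir200 genes and Mir205, were detected and summed to 19391 CPM in pup 2, against 19931 CPM in pup 1. A gene counted as detected with at least 1 CPM and 3 counts in both libraries, which 335 genes reached. In whole tissue, fewer cells of a type and less RNA per cell cannot be told apart. Intervals given below are exact 95% intervals computed from the counts and reflect counting error alone. Molecules were not tagged before amplification, so reads copied from the same molecule count separately and the intervals may be too narrow.

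All 9 genes had counts in both bladders, and 8 were detected, Mir7-2 being the exception. Together they summed to 288 CPM in pup 2, against 269 CPM in pup 1, or 279 ± 13.3 CPM, which is 0.0279% of miRNA counts. None of the 9 reached the median level of the 335 detected genes, 74.0 CPM, in the mean of the pups. Their ranks among all 1973 genes ran from 169 for Mir122 to 358 for Mir7-2, and 1305 genes had no count in either library. None had a count on the opposite strand. Levels of different miRNAs also carry the ligation bias of small RNA libraries, which was not measured here, and counts were not divided by length because each read comes from an RNA of under 30 nucleotides.

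**Figure D1:**
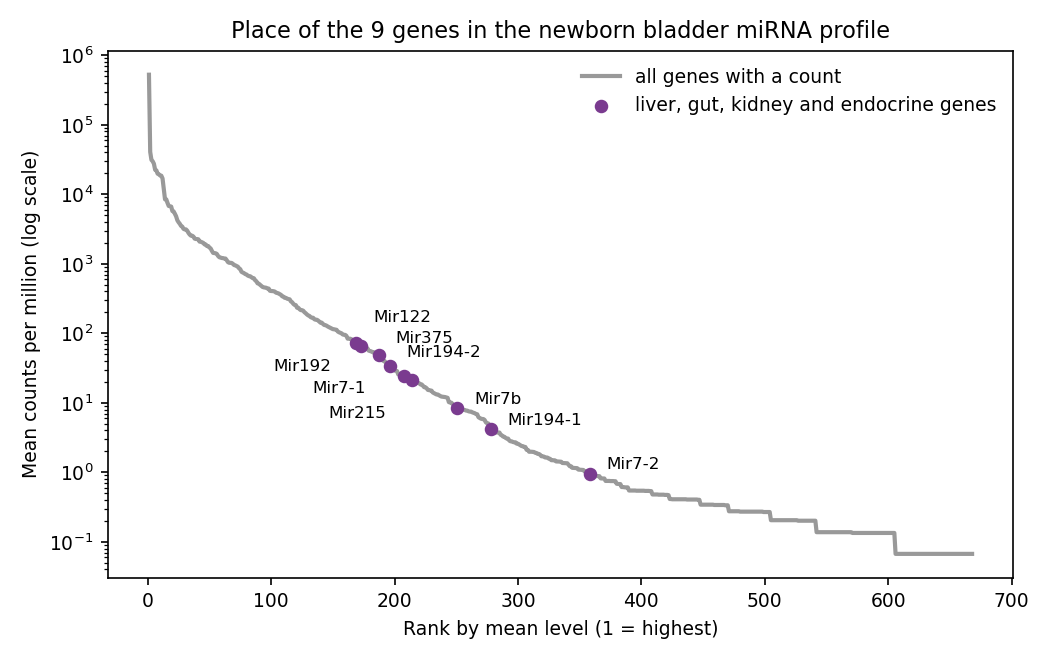
Mean level over both pups (CPM, log axis) against rank for every miRNA gene with a count (grey line), with the 9 liver, gut, kidney and endocrine genes as points. The points run from rank 169 to rank 358 of the 668 genes with a count.

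The sums were close, but the make-up differed between the bladders. Mir122 made up 11.0% of the 9 genes' counts in pup 2 and 41.5% in pup 1. Mir375 made up 25.1% in pup 2 and 9.05% in pup 1. Mir192 held 25.8% in pup 2 and 21.5% in pup 1. Mir192 was therefore the highest of the 9 in pup 2, with Mir375 next, whereas Mir122 was the highest in pup 1, with Mir192 next.

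In the order of mean levels Mir122 led, followed by Mir192, Mir375, Mir194-2, Mir7-1, Mir215, Mir7b, Mir194-1 and Mir7-2. The values of neighbouring genes overlapped over the pups from Mir122 down to Mir194-2, between Mir7-1 and Mir215, and between Mir7b and Mir194-1. Both values of Mir194-2 lay above both of Mir7-1, both of Mir215 above both of Mir7b, and both of Mir194-1 above both of Mir7-2. With 2 pups this describes the order and does not test it.

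**Figure D2:**
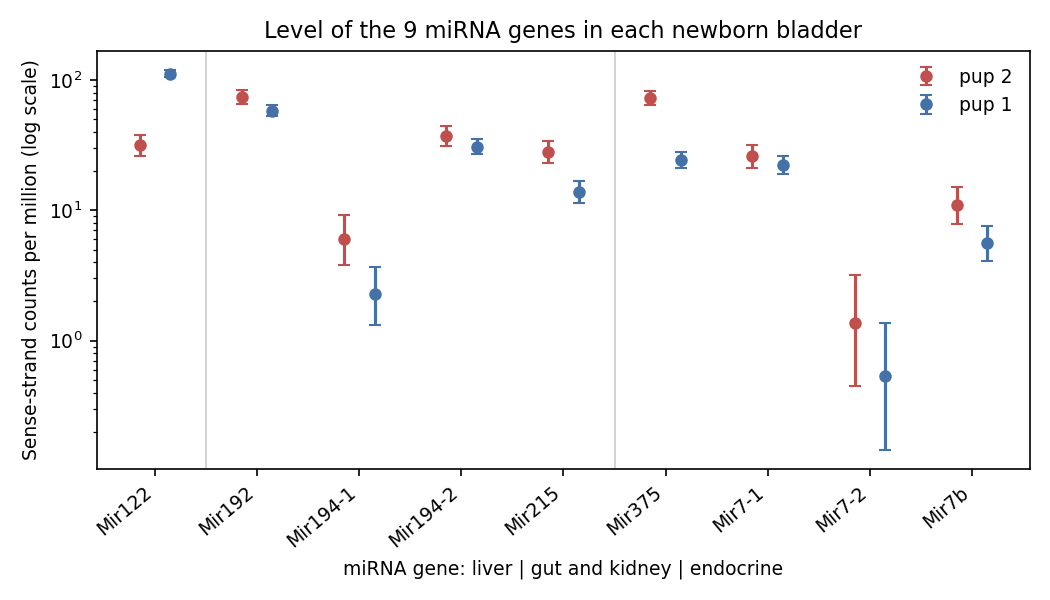
Sense-strand CPM (log axis) of each gene in pup 2 (red) and pup 1 (blue), with exact 95% Poisson intervals of the counts as bars. Mir122 is at 31.6 CPM in pup 2, against 112 CPM in pup 1, and the points of the other 8 genes lie higher in pup 2, with overlapping bars for Mir194-2, Mir7-1 and Mir7-2.

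Mir122 was the liver gene of the set and the one that differed most between the bladders. It had 115 counts in pup 2 and 834 in pup 1. This gave 31.6 CPM in pup 2 (interval 26.1 to 38.0), against 112 CPM in pup 1 (104 to 120), or 71.7 ± 56.7 CPM. The pups lay far apart, with pup 1 the higher. The log2 ratio of pup 2 over pup 1 was -1.79 with TMM scaling of library sizes, a ratio of 0.288 (0.235 to 0.350). It was the lowest ratio of the 248 genes whose counts summed to 100 or more.

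The 4 genes of liver, gut and kidney summed to 146 CPM in pup 2, against 105 CPM in pup 1. Mir192 had 270 counts in pup 2 and 432 in pup 1, which is 74.2 CPM in pup 2, against 57.9 CPM in pup 1. Its neighbour Mir194-2 had 136 counts in pup 2 and 229 in pup 1, which is 37.4 CPM in pup 2, against 30.7 CPM in pup 1. Pup 2 had the higher value of both chromosome 19 genes. The ratio was 1.30 (1.12 to 1.52) for Mir192 and 1.24 (0.994 to 1.54) for Mir194-2, whose interval included equal levels. On chromosome 1, Mir215 had 102 counts in pup 2 and 103 in pup 1 despite the deeper library of pup 1, which is 28.0 CPM in pup 2, against 13.8 CPM in pup 1. Mir194-1 had only 22 counts in pup 2 and 17 in pup 1, which is 6.05 CPM in pup 2, against 2.28 CPM in pup 1. The chromosome 1 genes stood further apart, with ratios of 2.07 (1.56 to 2.74) for Mir215 and 2.70 (1.37 to 5.41) for Mir194-1.

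Ratios between genes inside 1 library do not depend on library scaling, and 8 were compared. On chromosome 19, Mir192 had 1.99 counts per count of Mir194-2 in pup 2 (1.61 to 2.46) and 1.89 in pup 1 (1.60 to 2.22). The odds ratio of pup 2 over pup 1 was 1.05 (0.804 to 1.38), so no difference was detectable at this depth. On chromosome 1, Mir215 had 4.64 counts per count of Mir194-1 in pup 2 (2.90 to 7.72) and 6.06 in pup 1 (3.61 to 10.8), with an odds ratio of 0.766 (0.359 to 1.61). Between the places, the summed chromosome 1 pair had 0.305 counts per count of the chromosome 19 pair in pup 2 (0.248 to 0.374) and 0.182 in pup 1 (0.148 to 0.221). That odds ratio was 1.68 (1.26 to 2.25), an interval that leaves out 1. The intervals of both neighbour ratios included 1, and whether the odds ratios differ from each other was not tested. The intervals are not corrected for the 8 comparisons and compare these libraries alone.

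Mir192 and Mir215, the genes whose 5p strands share a seed, were also compared by their gene counts, which do not separate 5p from 3p reads. There were 2.65 counts of Mir192 per count of Mir215 in pup 2 (2.10 to 3.36) and 4.19 in pup 1 (3.38 to 5.25), an odds ratio of 0.631 (0.456 to 0.874). Together they summed to 102 CPM in pup 2, against 71.7 CPM in pup 1. Of the Mir194 copies, Mir194-2 had 6.18 counts per count of Mir194-1 in pup 2 (3.92 to 10.2) and 13.5 in pup 1 (8.23 to 23.5), an odds ratio of 0.460 (0.221 to 0.943). Reads of the shared miR-194-5p strand can be missing from both copies.

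**Figure D3:**
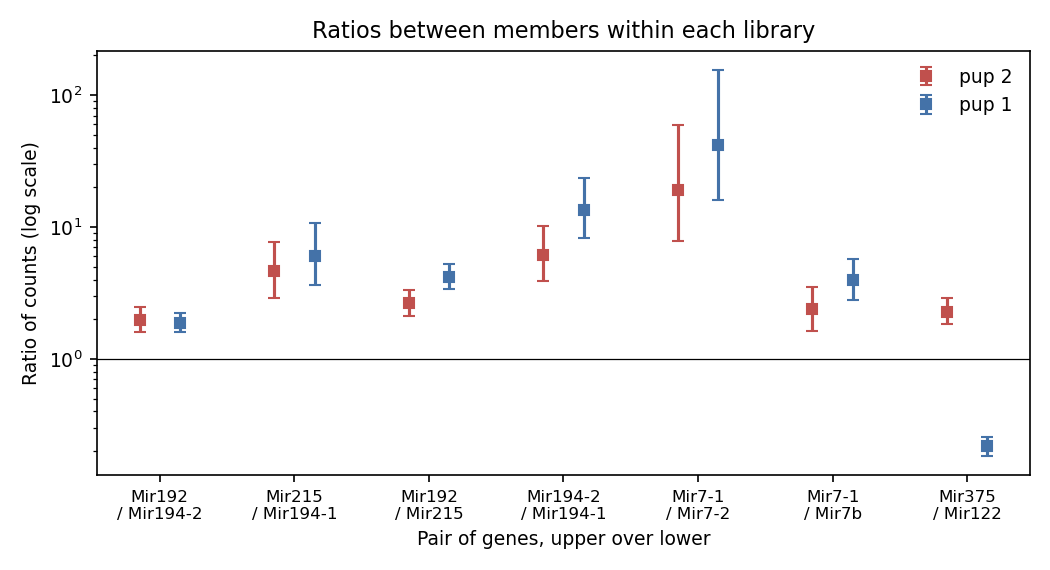
Ratio of counts (log axis) for 7 pairs of genes within pup 2 (red) and within pup 1 (blue), with exact 95% intervals as bars. Mir192 over Mir194-2 is 1.99 in pup 2 and 1.89 in pup 1, whereas Mir375 over Mir122 is 2.29 in pup 2 and 0.218 in pup 1.

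The 4 endocrine genes summed to 111 CPM in pup 2, against 52.9 CPM in pup 1, and Mir375 carried most of the difference. Mir375 had 263 counts in pup 2 and 182 in pup 1, which is 72.3 CPM in pup 2 (63.8 to 81.6), against 24.4 CPM in pup 1 (21.0 to 28.2). The ratio was 3.01 (2.49 to 3.66), a log2 ratio of 1.59, and only Mir223 had a higher one among the 248 genes with at least 100 counts. Set against Mir122, which went the other way, there were 2.29 counts of Mir375 per count of Mir122 in pup 2 and 0.218 in pup 1. This odds ratio was 10.5 (7.92 to 13.9).

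The Mir7 genes were low. Mir7-1, the copy inside Hnrnpk, had 95 counts in pup 2 and 167 in pup 1, which is 26.1 CPM in pup 2, against 22.4 CPM in pup 1. Its ratio of 1.19 had an interval of 0.912 to 1.54, which included equal levels. Mir7b, with a mature strand of its own, had 40 counts in pup 2 and 42 in pup 1, which is 11.0 CPM in pup 2, against 5.63 CPM in pup 1. Its ratio was 1.99 (1.26 to 3.14). Mir7-2 had 5 counts in pup 2 and 4 in pup 1, which is 1.37 CPM in pup 2 (0.446 to 3.21), against 0.536 CPM in pup 1 (0.146 to 1.37). It was too low to compare and was the only one of the 9 under the minimum of 10 counts summed.

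Mir7-1 thus had 19.0 counts per count of Mir7-2 in pup 2 (7.86 to 59.9) and 41.8 in pup 1 (16.0 to 155), an odds ratio of 0.456 (0.0884 to 2.18). Both copies encode the same miR-7a-5p strand. Mir7-1 had 2.38 counts per count of Mir7b in pup 2 (1.63 to 3.53) and 3.98 in pup 1 (2.82 to 5.72), with an odds ratio of 0.598 (0.351 to 1.02). Mir7j does not belong with these genes despite its symbol. RefSeq names its mature strand let-7j, whose seed GAGGUAU differs from the seed GGAAGAC of the Mir7 genes. It had 14.6 CPM in pup 2, against 22.1 CPM in pup 1.

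Across the whole table, an exact binomial test with Benjamini-Hochberg adjustment compared the libraries over 362 genes, those reaching 10 counts in the sum of both, at a threshold of 0.05. It sets the difference against read counting noise alone and has no replicate check. It called 32.3% of the tested genes, 19.1% as higher in pup 2 and 13.3% as lower. Of the 8 genes described here that were tested, 6 were called, with Mir375, Mir215, Mir7b, Mir194-1 and Mir192 higher in pup 2 and Mir122 lower. By this exact test the adjusted p was 2.04e-46 for Mir122 and 1.57e-29 for Mir375. For Mir215 it was 1.80e-06 and for Mir192 0.00313 (exact test). Mir194-2 and Mir7-1 were not called, with adjusted p of 0.127 and 0.351 by the exact test.

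Not all of the called differences were large, with ratios of pup 2 over pup 1 of 1.30 for Mir192 and 1.99 for Mir7b. At least 2-fold differences were seen in 6.91% of the 362 tested genes, and in 4 of the 8. Mir375, Mir194-1 and Mir215 were 2-fold higher in pup 2, as were 3.04% of tested genes, and Mir122 was 2-fold lower, as were 3.87%. These shares cover genes of all depths, and ratios of genes with few counts scatter more by counting noise. Mir194-1 was such a gene, with 39 counts summed. The median absolute log2 ratio was 1.01 over the 8 genes and 0.164 over all tested genes. The signed median was 0.68 over the 8 and 0.03 over all. Among the 248 genes with at least 100 counts summed, 4 differed at least 2-fold, or 1.61%. They were Mir122, Mir375, Mir215 and Mir223, a blood gene outside the set described here, with a log2 ratio of 1.71. With TMM factors taken from all genes the log2 ratio of Mir215 was 0.98, just under 2-fold.

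With the spread between these libraries added (edgeR's exact test with a common dispersion, a biological coefficient of variation of 13.2%), 1.38% of genes were called. Mir122 and Mir375 were among these 5 genes, with adjusted p of 9.89e-07 and 3.46e-05 in edgeR's exact test. Mir215, Mir7b, Mir194-1 and Mir192 were not, with adjusted p of 0.115, 0.724, 0.505 and 1 in the same exact test. The dispersion comes from the same pair of libraries, so these calls describe them and do not test a difference between animals.

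**Figure D4:**
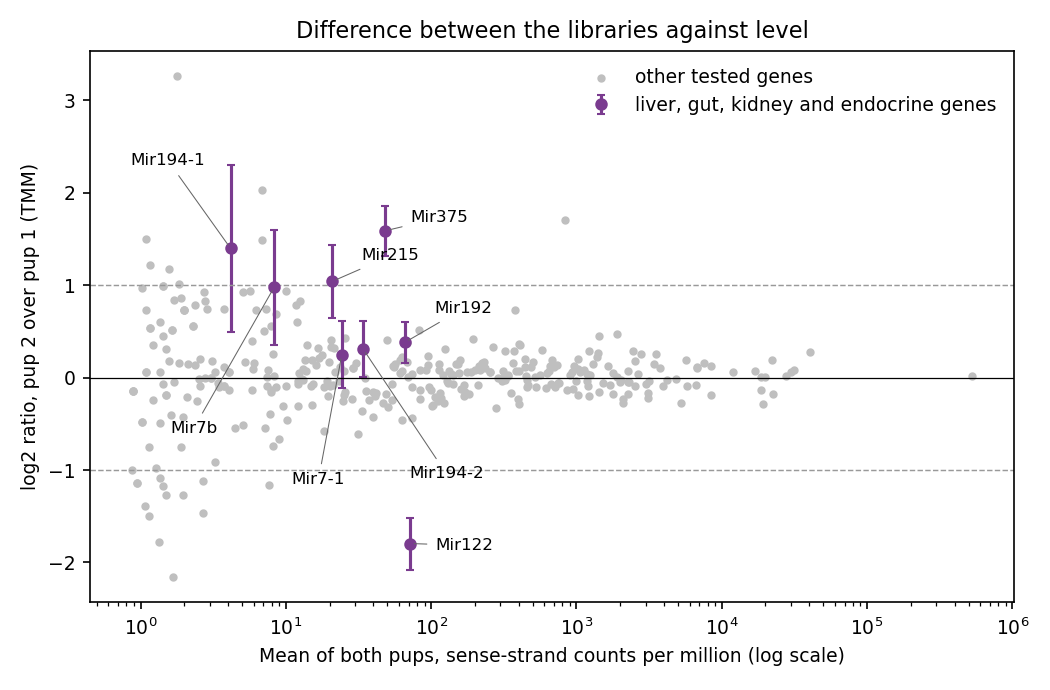
Log2 ratio of pup 2 over pup 1 against mean level (CPM, log axis) for the 362 tested genes, with the 8 tested liver, gut, kidney and endocrine genes in purple. Bars are 1.96 counting SE and dashed lines mark 2-fold. Mir122 lies at -1.79 and Mir375 at 1.59, outside the band of genes of like level.

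Other miRNAs known from the same organs were read from the same tables. Mir802, a miRNA of liver, kidney and pancreas, had 1.10 CPM in pup 2, against 1.34 CPM in pup 1. Mir204, found in kidney and eye, had 10.4 CPM in pup 2, against 6.57 CPM in pup 1, and it was not called (log2 ratio 0.69). Its relative Mir211 had 1 count in pup 2 and none in pup 1. The exocrine pancreas genes Mir216a, Mir216b and Mir217 summed to 1.10 CPM in pup 2, against 2.41 CPM in pup 1, and none of the 3 was detected. From the islet and neuroendocrine list, Mir153 had 4.67 CPM in pup 2, against 2.81 CPM in pup 1. Mir184 had 8.25 CPM in pup 2, against 8.31 CPM in pup 1. Neither was called, and Mir129-1 and Mir129-2 were not detected. In that list 7 genes were tested, of which Mir375 and Mir7b were called as higher in pup 2 and Mir7j as lower. Without Mir7j, whose mature strand is named let-7j, 6 were tested, with 2 called as higher and 0 as lower. These 2, Mir375 and Mir7b, belong to the 9 genes, and no gene outside the 9 was called among the 6. In the intestine and kidney tubule list 5 were tested, with 3 called as higher in pup 2 and no other called. The 3 were Mir192, Mir194-1 and Mir215, which belong to the 9 genes, whereas Mir802 was not called (log2 ratio -0.24). Both lists thus repeat calls of the 9 genes. Over all tested genes, 19.1% were called as higher in pup 2 and 13.3% as lower.

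Markers of other cells were read beside these differences. The neuron genes Mir124a-1, Mir124a-2, Mir124a-3, Mir9-2 and Mir9-3 were at 0 in both libraries, although near-identical copies can lose their reads. Mir137, also of neurons, had 37.4 CPM in pup 2, against 42.4 CPM in pup 1, and the neuron list summed to 63.8 CPM in pup 2, against 67.0 CPM in pup 1, with none of 3 tested genes called. The 7 blood genes with a row summed to 2357 CPM in pup 2, against 1201 CPM in pup 1, and 3 of the 6 tested were called, each higher in pup 2. Of these, Mir223, a miRNA of neutrophils, had 1274 CPM in pup 2, against 396 CPM in pup 1. Mir144 and Mir451a, of red cells, were the others called. Mir486, Mir150 and Mir155 were not called, with log2 ratios of 0.12, 0.16 and -0.11, and the median of the 6 was 0.26. Mir142b, also in the blood list, had no sense-strand count and was not tested. Its opposite-strand raw counts, 6605 in pup 2 and 5962 in pup 1 despite the deeper library of pup 1, are not part of the blood sum. The 3 called blood genes and Mir375 were higher in pup 2 and Mir122 lower, and the part of blood cells in either difference was not tested. The epithelial genes differed little, with a ratio of sums of 0.989 (0.980 to 0.998), 2 of 11 called as higher and 2 as lower.

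Likeness of pattern rests on 2 libraries and was measured as the distance in log2 ratio among the genes with at least 100 counts. No gene came near Mir122, whose closest gene, Mir206, was 1.13 log2 units away at -0.66. For Mir375 the closest was Mir223, 0.12 away, followed by Mir215 at 0.55. For Mir215 the closest was Mir326, a gene with 13.2 CPM in pup 2, against 6.97 CPM in pup 1, 0.11 away. Mir192, Mir194-2 and Mir7-1 each had 3 genes within 0.03 log2 units, among them Mir30b for Mir192, Mir328 for Mir194-2 and Mir218-2 for Mir7-1.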

How the data were processed

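Small RNA was sequenced from 2 newborn mouse bladders. The authors deposited raw whole-number counts per miRNA gene, 1 table per library, aligned to mm10 with GENCODE M4 genes per the labels and the deposited README text. The aligner and counter were not given in the sources used here. Headerless columns were read from their values as both strands, sense and opposite strand. Lines of unassigned reads stayed out of library sizes; unmapped reads were 7.32% in pup 2 and 8.19% in pup 1. Symbols and positions came from GENCODE M21 by gene number, with 1894 of 1973 IDs matched. RefSeq hairpin and mature entries on chromosome 18 were left out of sequence comparisons.

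Levels are CPM of sense counts. Ratios are pup 2 over pup 1 with TMM factors from the tested genes (edgeR 4.0.16, R 4.3.3). A prior count of 0.5 was added for log2 ratios, but not for plain ratios and their intervals. Each gene with at least 10 counts summed was tested by a two-sided exact binomial test with Benjamini-Hochberg adjustment. The test was tried on simulated Poisson counts, which hold counting noise alone and lack the added spread seen between these libraries. Intervals are exact Poisson for levels, exact conditional for ratios and Fisher's conditional for odds ratios (scipy 1.17.1). A p-value here compares libraries, not conditions.

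The 9 genes and the lists were chosen with earlier results of these data known. Named genes are the 9, up to 3 genes per list by level, list members given by count, and for each of the 9 with at least 100 counts the 3 genes nearest in log2 ratio. Mir153, Mir184, Mir129-1, Mir129-2, Mir7j, Mir802, Mir211, Mir200, Mir205 and the neuron genes at 0 are list members. Alternatives were other scalings (DESeq2 1.42.0 size factors, total counts), filters, strands, prior count and denominators, edgeR's exact test, each pup left out and, added after seeing the data, Mir7j left out of its list.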

Additional observations from a re-analysis of the deposited data

How the results depend on the processing

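The summed level of the 9 genes, 279 CPM, became 587 CPM with Mir143 left out of the denominator and 215 CPM without Mir194-1, Mir194-2, Mir7-1 and Mir7-2. It ranged from 269 to 288 CPM with either pup left out. The count of genes that differed between the libraries, 117, was 5 by edgeR's exact test with the common dispersion and 104 to 125 under the other alternatives. Its split was 69 higher and 48 lower in pup 2, but 59 and 64 with total counts, 56 and 69 with DESeq2 size factors, and 49 and 74 with TMM over all genes, which was added after seeing the data. The 25 genes at least 2-fold apart fell to 4 at a minimum of 100 counts, where fewer genes were tested. Of the 9 genes, 9 had a count in both libraries and 6 reached 10 CPM in both. The log2 ratios of the 8 tested genes kept sign and call under 3 other scalings, a prior count of 2 and counts of both strands, and 4 lost the call in edgeR's exact test with the common dispersion. No paired analysis was possible because there is 1 group. Depth limits Mir7-2 and Mir194-1, with 9 and 39 counts summed.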
